A study of Mus musculus with 36 samples.

Results

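Gene expression was compared in mouse bone marrow monocytes after OMV-SIRP-G and after phosphate-buffered saline (PBS). The comparison takes its 6 libraries, 3 of monocytes after OMV-SIRP-G and 3 of monocytes after PBS, from the 36 libraries of the study by their labels, and it covers all genes measured. Each library is named here by its treatment and replicate number, as PBS 1 or OMV-SIRP-G 3. The study followed macrophages and their precursors in mice given engineered outer membrane vesicles, and it sequenced 4 cell populations in 12 groups of 3. All 6 libraries came from wild-type bone marrow, and the only labelled difference between them was the treatment. The titles call the cells monocytes, whereas the cell type label reads only bone marrow cells. The labels do not spell out OMV-SIRP or OMV-SIRP-G, and they give no dose, time, age or strain. A further monocyte group, 3 libraries after OMV-SIRP, and the 3 PBS and 3 OMV-SIRP-G libraries of granulocyte-macrophage progenitors (GMP) are used only to show where the response differs. The design text speaks of samples being pooled, and no label ties the libraries to separate mice. The p-values therefore measure only the spread between these libraries, which may be technical.

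Outer membrane vesicles are shed by Gram-negative bacteria and carry lipopolysaccharide and other bacterial molecules that pattern recognition receptors detect. Monocytes are made in the bone marrow from progenitors such as GMP, leave it for the blood, and can become macrophages in tissues and tumours. In mice, classical monocytes carry much Ly6C and CCR2, and non-classical monocytes carry much CX3CR1. Type I interferon keeps a set of antiviral genes on in myeloid cells at a low level even without infection.

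Values are FPKM, fragments per kilobase of gene length at a common sequencing depth, so that levels can be compared between genes. Differences are log2 changes of FPKM + 1 with their standard error, which understates the change of weakly expressed genes. Adjusted p-values are Benjamini-Hochberg values from limma over all genes tested, and "rose" and "fell" are used only below 0.05. The monocyte libraries held 15448731 to 17811332 reads assigned to genes. All 15 classical monocyte markers on the list were measured above the filter, with Csf1r, the macrophage colony-stimulating factor receptor, at 292 to 306 FPKM after PBS and 368 to 419 FPKM after OMV-SIRP-G (0.40, adjusted p = 0.149, or 0.38 with adjusted p = 0.0195 without PBS 2). Among markers of other cells, the 12 T cell genes summed to 6.10 to 8.94 FPKM after PBS and 4.64 to 5.40 FPKM after OMV-SIRP-G, and primary granule and red cell genes, described below, summed to higher levels. The T cell receptor component Cd3e stayed under 0.1 FPKM, and the summed level of 16 mature neutrophil genes was 3151, 7610 and 3416 FPKM in PBS 1, 2 and 3 against 2723 to 3635 FPKM after OMV-SIRP-G.

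PBS 2 stood apart from the other 5 libraries. Its log2 expression correlated with PBS 1 and PBS 3 at 0.928 and 0.925, against 0.988 between PBS 1 and PBS 3 and 0.979 to 0.986 among the OMV-SIRP-G libraries. A total of 2170 genes in PBS 2 lay at least 2-fold from the mean of PBS 1 and PBS 3, whereas 204 genes were at least 2-fold apart between PBS 1 and PBS 3. Its summed FPKM was 538012 against 329789 to 348419 in the other 5. The deviation followed gene length. With the tested genes cut into 5 equal classes by length, the median log2 deviation of PBS 2 from PBS 1 and PBS 3 was 0.657 in the shortest class, 0.106 in the middle class and -0.541 in the longest. OMV-SIRP-G 2 and OMV-SIRP-G 3 deviated from the mean of the other libraries of their group by -0.162 and 0.151 in the shortest class. In the longest class they deviated by 0.106 and -0.101, so they leaned in opposite directions. Counts and the main changes are therefore given with and without PBS 2. The part of length or RNA quality in any result was not tested.

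**Figure D1:**
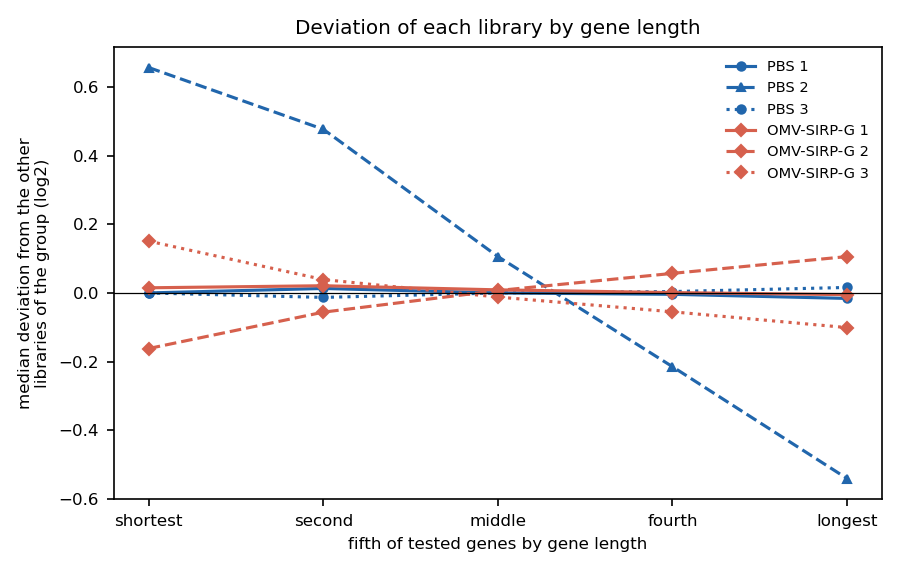
Median log2 deviation of each of the 6 libraries in 5 classes of gene length, from shortest to longest. PBS 2 is set against the mean of PBS 1 and PBS 3, and PBS 1 and PBS 3 against each other. Each OMV-SIRP-G library is set against the mean of the other libraries of its group. PBS 2 runs from 0.657 down to -0.541, and the other 5 stay between -0.162 and 0.151.

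After OMV-SIRP-G, 184 genes rose (1.53%) and 258 fell (2.14%) against PBS, together 442 of the 12028 tested (3.67%). Of these, 76 were at least 2-fold higher and 114 at least 2-fold lower. The 3 values of one group lay outside the range of the other for all 442, which held for 22.7% of all genes tested, 11.2% with the OMV-SIRP-G values higher and 11.5% with them lower. Leaving out PBS 2 raised the count to 1479 of 11854 genes (12.5%), 671 higher (5.66%) and 808 lower (6.82%). This second set held 412 of the 442, all in the same direction, which is 93.2% of the first list and 27.9% of the second. In the second set 80 genes had the opposite sign in the fit of all libraries. Leaving out any other library lowered the count, to between 202 and 272. The median log2 change over all genes was -0.01 with all libraries and 0.01 without PBS 2. The length trend of PBS 2 entered the full comparison, whose median change went from -0.154 in the shortest length class to 0.128 in the longest. Without PBS 2 the same medians were 0.040 and -0.048. The calls of that fit still differed by length. In the shortest class 116 genes rose and 110 fell, and in the longest 77 rose and 194 fell. The 8 called genes named by the rule whose change moved most without PBS 2 were Hba-a1, Hbb-bs, Elane, Ly6d, Hbb-bt, Ifi27l2a, Isg15 and Fcnb, all of them falls that became smaller. Fcnb, which encodes a ficolin of myeloid cells, was at 39.6, 92.8 and 43.4 FPKM after PBS and at 14.7, 12.5 and 16.03 FPKM after OMV-SIRP-G, and its change went from -1.85 to -1.47. Its call was lost when OMV-SIRP-G 1 or 2 was left out, with an adjusted p of up to 0.0592.

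The largest rise was that of Ccl5, a chemokine that attracts T cells and monocytes (chr11:83525778-83530518, minus strand). Ccl5 was at 8.62, 18.6 and 8.04 FPKM in PBS 1, 2 and 3 and at 341, 323 and 313 FPKM in OMV-SIRP-G 1, 2 and 3. The groups lay far apart, and the log2 change was 4.77 ± 0.28 (limma adjusted p = 0.000106), or 5.13 without PBS 2. After OMV-SIRP the same gene was at 17.8, 21.9 and 24.0 FPKM, and the direct test of OMV-SIRP-G against OMV-SIRP gave 3.89 (adjusted p = 0.000784). Mmp14, a membrane-bound matrix metalloproteinase, was at 5.22, 3.12 and 4.56 FPKM after PBS and at 30.0, 35.9 and 32.4 FPKM after OMV-SIRP-G, a change of 2.69 ± 0.16 (adjusted p = 0.000114), or 2.52 without PBS 2. It was also high after OMV-SIRP, at 18.9 to 22.8 FPKM, and the test between the 2 vesicle groups gave 0.61 (adjusted p = 0.101, or 0.00266 without PBS 2).

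Cd38, a surface enzyme that consumes NAD, was at 1.84, 1.63 and 2.25 FPKM after PBS and at 9.58, 9.68 and 9.80 FPKM after OMV-SIRP-G. It rose by 1.89 ± 0.11 (adjusted p = 9.69e-05), or 1.82 without PBS 2. The SD (n = 3) was 0.315 FPKM after PBS and 0.111 FPKM after OMV-SIRP-G. Ptges, the inducible prostaglandin E synthase, was at 5.01, 5.01 and 5.13 FPKM after PBS and at 19.8, 22.0 and 19.0 FPKM after OMV-SIRP-G. Its change was 1.81 both with and without PBS 2. Acp5, the tartrate-resistant acid phosphatase of osteoclasts and macrophages, went from 2.87, 5.26 and 2.45 FPKM to 14.6, 14.4 and 16.9 FPKM. Pilra, an inhibitory receptor of myeloid cells, went from 5.72, 9.36 and 6.31 FPKM to 24.1, 22.2 and 24.6 FPKM. Both rose, by 1.89 and 1.62 on the log2 scale, or 2.15 and 1.81 without PBS 2.

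The other genes among the 15 largest rises were Il1rn, Il1b, Hspa1b and Fos, described with their groups below, and Shtn1, Cav1, Plxna1, Bcl2a1d and AA467197, whose log2 changes lay between 1.57 and 1.71. Cav1 encodes the main coat protein of caveolae, Plxna1 a semaphorin receptor, and Bcl2a1d an inhibitor of cell death that has near-identical copies, so its reads may have been divided between them. Of the 30 largest changes in either direction, 27 kept their call without each of the 6 libraries in turn. The exceptions were Plxna1, AA467197 and, among the falls, Ifi27l2a. Plxna1 and AA467197 lost the call without any 1 of the 3 OMV-SIRP-G libraries, with an adjusted p of up to 0.073 and 0.065.

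**Figure D2:**
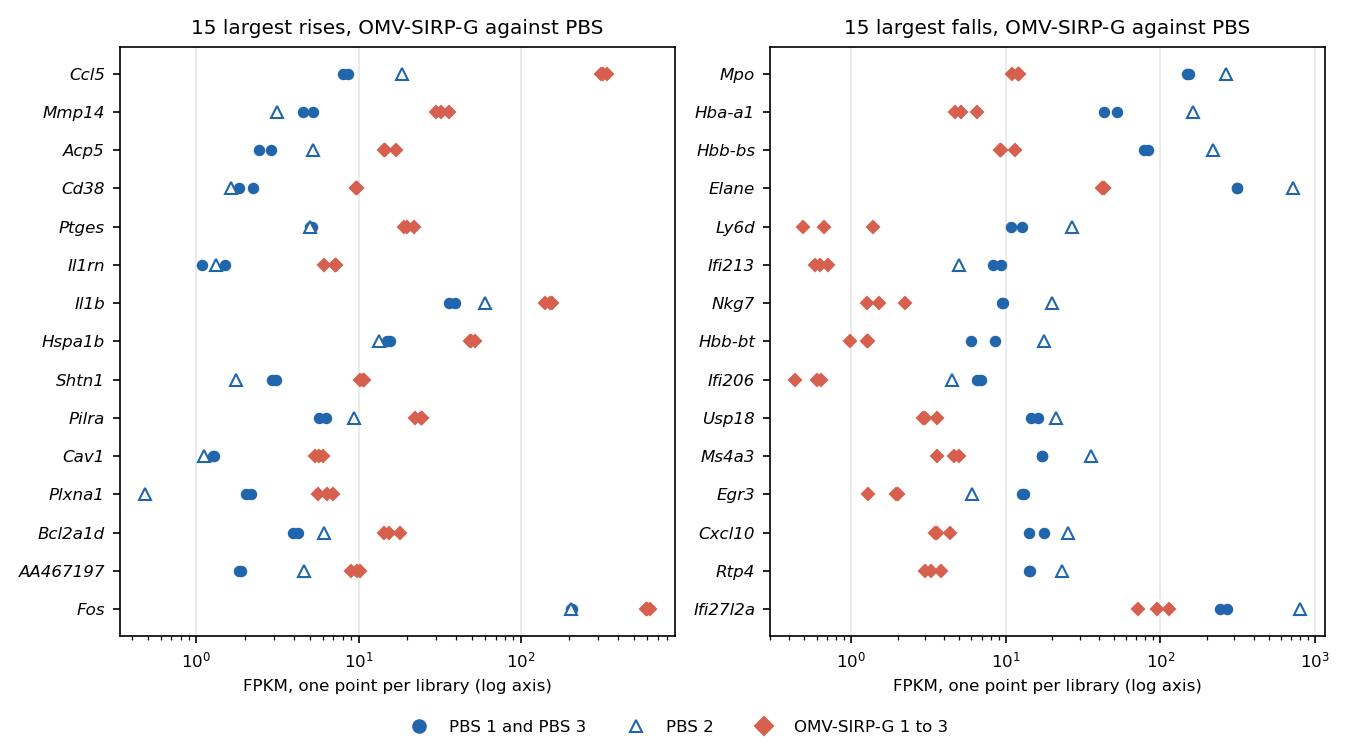
FPKM of the 15 largest rises and the 15 largest falls in each of the 6 libraries, on a logarithmic axis; circles are PBS 1 and PBS 3, the open triangle PBS 2, and diamonds the OMV-SIRP-G libraries. Ccl5 lies at 313 to 341 FPKM after OMV-SIRP-G against 8.04 to 18.6 FPKM after PBS, and Mpo at 11.1 to 12.2 against 149 to 266 FPKM.

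Interferon-stimulated genes fell as a group. Of 24 genes on the list, 23 were tested; 21 fell and none rose, with a median log2 change of -1.72 against -0.01 over all genes, 2.14% of which fell. Without PBS 2 all 23 fell, with a median of -1.61, where 6.82% of all genes fell. All 23 were lower in each of the 3 OMV-SIRP-G libraries than in each of the 3 PBS libraries, against 11.5% of all genes tested. Leaving out any 1 of the other 5 libraries left 18 to 20 of the 21 calls.

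Among the effectors, Oasl2, a member of the 2'-5'-oligoadenylate synthetase family, was at 22.6, 24.1 and 23.7 FPKM in PBS 1, 2 and 3 and at 5.76, 6.36 and 5.25 FPKM in OMV-SIRP-G 1, 2 and 3. Its change of -1.85 ± 0.10 (adjusted p = 9.69e-05) moved by little without PBS 2, to -1.83. Ifit1, which binds viral RNA, was at 7.04, 7.27 and 8.68 FPKM after PBS and at 1.73, 1.32 and 1.86 FPKM after OMV-SIRP-G, a fall of 1.72 ± 0.12 (adjusted p = 0.000217), or 1.75 without PBS 2. Mx1, of the antiviral Mx GTPase family, is annotated as a polymorphic pseudogene, and whether its RNA made a working protein here is not known. It was at 17.7, 13.7 and 17.9 FPKM after PBS and at 3.08, 4.01 and 3.64 FPKM after OMV-SIRP-G, a change of -1.92, or -2.04 without PBS 2. Rsad2 (viperin), which makes a chain-terminating nucleotide, went from 6.26 to 9.51 FPKM down to 2.06 to 2.46 FPKM. Isg15, a ubiquitin-like modifier, was at 51.7, 129 and 53.7 FPKM after PBS and at 21.2, 14.7 and 20.2 FPKM after OMV-SIRP-G. PBS 2 held by far the highest value of this short gene, and the fall of 1.89 ± 0.33 (adjusted p = 0.0184) was 1.46 without it. The Isg15 call was lost without any 1 of the OMV-SIRP-G libraries (adjusted p up to 0.0874).

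Regulators of the pathway fell with the effectors. Usp18, which removes Isg15 from proteins and dampens the interferon receptor, was at 16.1, 21.2 and 14.5 FPKM after PBS and at 2.93, 3.59 and 3.00 FPKM after OMV-SIRP-G. Its change of -2.12 ± 0.14 (adjusted p = 0.000175), or -1.97 without PBS 2, was among the 15 largest falls, as were those of Rtp4 (-2.02) and Ifi27l2a (-2.01). Irf7, the transcription factor that amplifies interferon production, fell by 1.5, from 36.3 to 63.9 FPKM down to 14.8 to 15.6 FPKM. Stat2, a transcription factor downstream of the receptor, fell by 1.14. The 2 tested members that did not pass were Ifih1, a sensor of double-stranded RNA (-0.57, adjusted p = 0.0747), and Bst2, or tetherin (-1.43, adjusted p = 0.0824); without PBS 2 both fell, by 0.74 and 0.96. Ifi27l2a, at 798 FPKM in PBS 2 against 269.7 and 243 FPKM in PBS 1 and 3, moved to -1.46 without PBS 2 and lost its call without PBS 1 or any 1 of the OMV-SIRP-G libraries (adjusted p up to 0.163). The RNA sensor Ddx58 (-0.89) kept its call only when PBS 2 was the library left out (adjusted p up to 0.0989).

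Further interferon-linked genes outside that list moved the same way. Ifi213 and Ifi206, of the family of interferon-inducible DNA-binding proteins, fell by 2.34 and 2.15 (2.57 and 2.31 without PBS 2), from 4.996 to 9.33 and 4.52 to 6.92 FPKM after PBS to under 0.71 FPKM in all OMV-SIRP-G libraries. They belong to a cluster of similar genes, and reads may have been divided between copies. Cxcl10, a chemokine induced by interferon, was at 14.2, 25.2 and 17.8 FPKM after PBS and at 3.52, 3.59 and 4.35 FPKM after OMV-SIRP-G, a fall of 2.02 ± 0.19 (adjusted p = 0.000903), or 1.81 without PBS 2. Of 9 tested GTPase and related genes that interferon gamma induces, 4 fell and none rose, with a median of -0.54. Over all genes 2.14% fell. Irgm1, an immunity-related GTPase, was at 11.8, 11.8 and 12.2 FPKM after PBS and at 5.09, 5.49 and 4.64 FPKM after OMV-SIRP-G. Igtp fell by 1.06, and Gbp3 and Gbp2, guanylate-binding proteins, by 0.71 and 0.54. Without PBS 2, 8 of the 9 fell, against 6.82% of all genes. Gbp3 lost its call without any 1 of the other 5 libraries and Gbp2 without 4 of them (adjusted p up to 0.071 and 0.117).

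The promoters of 3 of these genes are shown, chosen because their bases share a short repeat. Each is the 250 bases before the RefSeq start in GRCm38.p6, read 5′ to 3′ on the gene's strand, from chr4:156200819-156201068 (minus) for Isg15, chr19:34640639-34640888 (plus) for Ifit1 and chr5:92348890-92349139 (minus) for Cxcl10. Capitals mark matches to GAAANNGAAA, the core of an interferon-stimulated response element, on either strand. The Isg15 matches overlap and start at -78, -72 and -66 from the gene start, those of Ifit1 lie on the other strand at -104 and -85, and the match of Cxcl10 starts at -213.
Isg15: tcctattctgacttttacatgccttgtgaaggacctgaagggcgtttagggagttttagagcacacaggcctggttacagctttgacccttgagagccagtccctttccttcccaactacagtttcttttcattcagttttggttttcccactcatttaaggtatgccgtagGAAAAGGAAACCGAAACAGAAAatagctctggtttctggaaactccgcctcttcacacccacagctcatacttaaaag
Ifit1: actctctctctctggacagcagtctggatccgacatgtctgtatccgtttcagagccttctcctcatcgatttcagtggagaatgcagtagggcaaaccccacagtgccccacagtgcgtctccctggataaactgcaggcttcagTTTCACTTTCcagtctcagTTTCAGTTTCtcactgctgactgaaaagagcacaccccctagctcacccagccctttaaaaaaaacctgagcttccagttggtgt
Cxcl10: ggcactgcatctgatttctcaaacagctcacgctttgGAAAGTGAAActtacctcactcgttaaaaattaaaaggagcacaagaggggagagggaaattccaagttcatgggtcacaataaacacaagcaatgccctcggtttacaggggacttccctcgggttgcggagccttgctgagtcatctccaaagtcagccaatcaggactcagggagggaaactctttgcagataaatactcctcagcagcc

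Over windows of 300 bases, from 250 before to 50 after the start, GAAANNGAAA was found on either strand in 10 of 17 promoters of the interferon list that the RefSeq table held (58.8%), in 1131 of all 32851 promoters (3.44%) and in 340 of 8275 tested genes with a promoter (4.11%). Among genes that fell the share was 33 of 185 (17.8%), and 25 of 171 (14.6%) with the interferon list left out. It was 6 of 134 among genes that rose (4.48%) and 301 of 7956 among genes that did neither (3.78%). The promoters of Oasl2 and Irf7 were among those of the interferon list without a match. A match describes the letters only. The promoters of Ccl5 and Usp18 were not in the table.

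**Figure D3:**
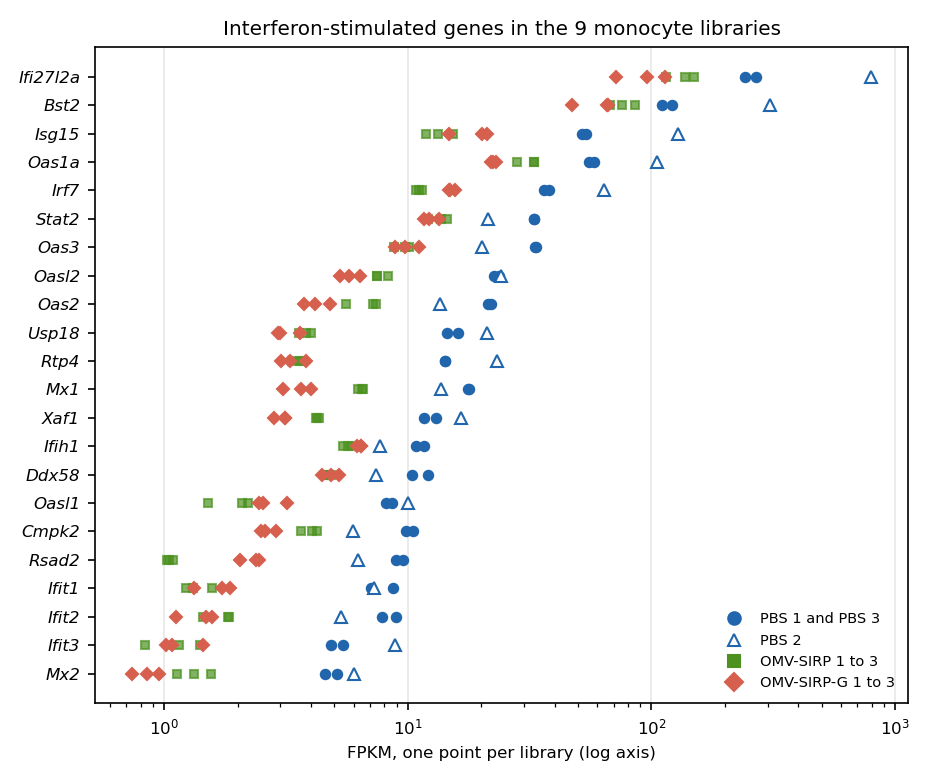
FPKM of 22 tested interferon-stimulated genes in 9 monocyte libraries, 3 each after PBS, OMV-SIRP and OMV-SIRP-G, on a logarithmic axis. All 22 lie lower in every OMV-SIRP-G library than in every PBS library, for example Oasl2 at 5.25 to 6.36 against 22.6 to 24.1 FPKM.

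These genes were also low in the other vesicle group. Oasl2 was at 7.48, 7.49 and 8.27 FPKM and Usp18 at 3.58, 3.804 and 3.99 FPKM after OMV-SIRP, and in the test of OMV-SIRP-G against OMV-SIRP their adjusted p was 0.0989 and 0.625, or 0.011 and 0.123 without PBS 2. Of the 23 tested genes only Mx1 passed that test, and it was lower after OMV-SIRP-G (-0.71, adjusted p = 0.0281); 0.848% of all genes tested were called lower there. Without PBS 2, 2 of the 23 were higher and 7 lower after OMV-SIRP-G than after OMV-SIRP. Over all 11854 genes of that fit, 1548 were higher and 968 lower. A p that misses the threshold does not show that the levels were equal. In GMP, the change of Oasl2 after OMV-SIRP-G was -0.50 and that of Usp18 -0.36. Ifit3, also on the list, changed by 0.91 in GMP, so the members did not share a direction there. Between the monocyte and the GMP response the difference itself was tested. It passed for 904 of 13337 genes (6.78%), with the monocyte change above that of GMP in 321 (2.41%) and below in 583 (4.37%), and for 2027 (15.3%) without monocyte PBS 2. On the interferon list it passed for 17 of the 23 genes, all with the monocyte change below that of GMP, and for 22 without PBS 2.

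Primary granules are storage granules that myeloid progenitors fill before they mature, and 5 of the 8 genes on their list fell, with a median change of -1.62, where 2.14% of all genes fell. Without PBS 2, 7 were tested, of which 5 fell and 1, Cst7, rose, against 6.82% and 5.66% of all genes. Mpo, encoding myeloperoxidase (chr11:87793581-87804413, plus strand), was at 153, 266 and 149 FPKM in PBS 1, 2 and 3 and at 11.99, 12.2 and 11.1 FPKM in OMV-SIRP-G 1, 2 and 3. Its fall of 3.85 ± 0.21 (adjusted p = 9.69e-05), or 3.58 without PBS 2, was the largest of those that met the naming criteria. Elane, or neutrophil elastase, was at 311, 721 and 312 FPKM after PBS and at 42.9, 43.4 and 41.7 FPKM after OMV-SIRP-G, a fall of 3.24 ± 0.30 (adjusted p = 0.000774), or 2.84 without PBS 2. The proteinase gene Ctsg and Ms4a3, a membrane protein gene of granulocyte-monocyte progenitors, fell by 1.92 and 2.10. The remaining gene that fell, Prss57, passed the filter only through the PBS libraries. Prss57 was called in no fit that left out an OMV-SIRP-G library, and it was not tested without a PBS library. Prtn3, another of the proteases, was at 221, 575 and 220.4 FPKM against 168, 136 and 177 FPKM, and did not pass (adjusted p = 0.243). Without PBS 2 it fell by 0.47 (adjusted p = 0.029).

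The progenitor regulator Myb fell as well, from 4.36, 3.19 and 3.95 FPKM to 0.589, 0.772 and 0.568 FPKM, a change of -1.55 ± 0.13 (adjusted p = 0.00041), or -1.65 without PBS 2. The other 5 stem and progenitor genes tested did not pass with all libraries, and Kit (-0.60, adjusted p = 0.0331) and Cd34 (-0.37, adjusted p = 0.0176) fell without PBS 2. In bulk libraries such as these, fewer cells of a type and less RNA per cell cannot be told apart. After OMV-SIRP, Mpo was at 22.2, 22.1 and 26.7 FPKM, also far under the PBS values. Of 20 cell cycle genes 6 fell and none rose, with a median of -0.38, where 2.14% of all genes fell. Mcm6, part of the replicative helicase, fell by 0.77. Leaving out any 1 library other than PBS 2 left 1 cell cycle call, and leaving out PBS 2 gave 12, where 6.82% of all genes fell.

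Red cell and B lineage genes were lower in the same libraries. Hbb-bs, an adult beta globin, was at 83.0, 218 and 77.9 FPKM after PBS and at 9.37, 9.14 and 11.5 FPKM after OMV-SIRP-G, a fall of 3.37 ± 0.36 (adjusted p = 0.00163), or 2.89 without PBS 2. Hba-a1 and Hbb-bt fell by 3.5 and 2.30, while Hba-a2 passed only without PBS 2 (-1.98, adjusted p = 0.138, against -1.23, adjusted p = 0.0471); the alpha and the beta globins are near-identical pairs, so the division of reads within a pair is uncertain. The other red cell genes Klf1, Slc4a1 and Alas2 were under 1 FPKM in all 6 libraries. Ly6d, a surface marker of early B lineage cells, was at 10.9, 26.8 and 12.7 FPKM after PBS and at 0.488, 0.674 and 1.38 FPKM after OMV-SIRP-G, a fall of 3.19 ± 0.31 (adjusted p = 0.000938), or 2.82 without PBS 2. Ighm, the immunoglobulin mu chain, fell by 1.36, from 66.7 to 105 FPKM down to 28.2 to 31.8 FPKM. Cd79a and Vpreb3 passed the filter only through the PBS libraries, at 6.49 to 11.2 and 5.02 to 10.9 FPKM, and were under 0.52 FPKM in all 3 OMV-SIRP-G libraries. They were not tested when a PBS library was left out. The separate plasma cell list was mixed. Of its 4 tested genes Sdc1 rose by 0.88 (adjusted p = 0.00174) and Igha fell by 1.98 (adjusted p = 0.0044), where 1.53% of all genes rose and 2.14% fell.

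The summed levels of the red cell, B lineage, primary granule and eosinophil lists were lower in both vesicle groups than after PBS. The 13 measured red cell genes summed to 147, 429 and 140 FPKM in PBS 1, 2 and 3 against 18.5 to 22.2 FPKM after OMV-SIRP-G, the 13 B lineage genes to 113, 194 and 111 against 39.3 to 43.2 FPKM, and the 8 primary granule genes to 918, 1981 and 918 against 364 to 412 FPKM. The 10 eosinophil genes summed to 108, 219 and 104 FPKM against 47.2 to 60.6 FPKM, with Ear6 and Alox15 called lower (-1.41 and -0.83; both lost the call when some single libraries were left out, with an adjusted p of up to 0.0922 and 0.0708). Nkg7, a granule protein gene of cytotoxic lymphocytes, fell by 2.32, from 9.496 to 19.9 FPKM to 1.28 to 2.25 FPKM, while the natural killer receptor Ncr1 was at 0 in 5 of the 6 libraries. PBS 2 was the highest in each of these sums, and PBS 1 and PBS 3 were above all 3 OMV-SIRP-G libraries. After OMV-SIRP the red cell genes summed to 9.11 to 10.1 FPKM and the eosinophil genes to 27.3 to 30.9 FPKM, both under the OMV-SIRP-G range. The B lineage genes summed to 50.2 to 60.9 FPKM and the primary granule genes to 585 to 653 FPKM there, between OMV-SIRP-G and PBS. The part of other cells in the results was not tested.

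Of the genes that mark non-classical monocytes, a part rose. Of 9 tested 4 rose and none fell, with a median of 0.69, where 1.53% of all genes rose. Without PBS 2, 6 rose and none fell, where 5.66% of all genes rose. Adgre4, an adhesion receptor, was at 1.91, 1.51 and 2.52 FPKM after PBS and at 7.69, 7.70 and 7.33 FPKM after OMV-SIRP-G, a rise of 1.54 ± 0.13 (adjusted p = 0.00041), or 1.42 without PBS 2. Treml4, a receptor that amplifies Toll-like receptor 7 signalling, rose by 1.29, and Ace, the angiotensin-converting enzyme, by 1.06. Cx3cr1, the fractalkine receptor, was at 42.3, 31.8 and 43.1 FPKM after PBS and at 61.9, 65.5 and 62.4 FPKM after OMV-SIRP-G, a rise of 0.69 ± 0.13 (adjusted p = 0.0256). The Cx3cr1 call was lost without PBS 1 or any 1 of the OMV-SIRP-G libraries (adjusted p up to 0.117). Nr4a1, the transcription factor that non-classical monocytes require, was at 34.7 to 36.5 FPKM against 40.2 to 42.2 FPKM and passed only without PBS 2 (0.21, adjusted p = 0.285, against 0.22, adjusted p = 0.0445). Spn (CD43), a surface marker of that subset, was at 35.3 to 39.5 against 36.8 to 38.0 FPKM. After OMV-SIRP 4 of the 9 rose against PBS, where 369 of 12028 genes rose, and Ace did not pass (adjusted p = 0.0505). None of the 9 passed the test between the 2 vesicle groups with all libraries. Adgre4 was at 10.4 to 10.5 and Cx3cr1 at 66.5 to 76.6 FPKM after OMV-SIRP. Treml4 and Ace were lower there than after OMV-SIRP-G, at 3.96 to 5.39 and 3.71 to 4.71 FPKM.

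Of the 15 classical monocyte genes 3 fell and none rose, with a median of -0.07, where 2.14% of all genes fell. Fcgr1, the high-affinity immunoglobulin G receptor, was at 17.8, 25.4 and 17.9 FPKM after PBS and at 7.41, 6.51 and 8.66 FPKM after OMV-SIRP-G, a fall of 1.32 ± 0.16 (adjusted p = 0.00368), or 1.15 without PBS 2. Chil3, a chitinase-like protein gene of classical monocytes, went from 900.2 to 1339.6 FPKM down to 596 to 599 FPKM. Its fall of 0.80 kept the call only when PBS 2 was the library left out, with an adjusted p of up to 0.18. Ccr2, the receptor through which monocytes leave the marrow, was at 245, 193 and 264 FPKM against 214, 229 and 219 FPKM, and the groups overlapped. Ly6c2 was at 399.9, 829.6 and 403 FPKM after PBS and at 334, 304 and 314 FPKM after OMV-SIRP-G (adjusted p = 0.27, or 0.0358 without PBS 2). Cd14, the lipopolysaccharide co-receptor, was at 340.2, 583 and 352 FPKM against 637, 642 and 669.5 FPKM, and passed without PBS 2 (0.91, adjusted p = 5.17e-05). Without PBS 2, 3 of the 15 rose and 6 fell, against 5.66% and 6.82% of all genes.

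Inflammatory genes did not move as a block. Of 20 tested genes of the Toll-like receptor and NF-kB response 7 rose and 3 fell, with a median of 0.32. Over all genes 1.53% rose and 2.14% fell. Il1b, the precursor of interleukin 1 beta (chr2:129364570-129371139, minus strand), was at 36.0, 60.5 and 39.6 FPKM after PBS and at 152, 142 and 157 FPKM after OMV-SIRP-G, a rise of 1.74 ± 0.20 (adjusted p = 0.0022), or 1.96 without PBS 2. Il1rn, the antagonist of the same receptor, was at 1.09, 1.32 and 1.503 FPKM after PBS and at 7.24, 6.14 and 7.18 FPKM after OMV-SIRP-G, a rise of 1.77 ± 0.11 (adjusted p = 0.000114), or 1.78 without PBS 2. Tnf, tumour necrosis factor, was at 117, 165 and 111 FPKM after PBS and at 34.2, 31.7 and 38.0 FPKM after OMV-SIRP-G. It fell by 1.87 ± 0.16 (adjusted p = 0.000536), or 1.70 without PBS 2, opposite to Il1b.

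Nos2, the inducible nitric oxide synthase, was at 37.6, 21.8 and 37.9 FPKM after PBS and at 64.7, 75.4 and 58.0 FPKM after OMV-SIRP-G, a rise of 1.04 ± 0.22 (adjusted p = 0.0415), or 0.78 (adjusted p = 0.00644) without PBS 2. The Nos2 call was lost without any 1 of the other 5 libraries, with an adjusted p of up to 0.17. Ptgs2, the inducible cyclooxygenase that acts upstream of Ptges, was at 22.0, 12.99 and 23.4 FPKM after PBS and at 44.0, 45.5 and 40.7 FPKM after OMV-SIRP-G. It rose by 1.16, and lost the call without any 1 of the OMV-SIRP-G libraries (adjusted p up to 0.0793). The signalling genes Traf1, Irak3 and Tnfaip2 rose by 1.03, 0.89 and 0.47, and Nfkbiz and Zc3h12a, a transcriptional cofactor and an RNase that restrain or shape the response, fell by 1.06 and 0.56. These 5 calls were lost in between 2 and 5 of the fits that left out 1 library, with adjusted p-values of up to 0.056, 0.102, 0.156, 0.0747 and 0.0908. Without PBS 2, 9 of the 20 genes rose and 4 fell, against 5.66% and 6.82% of all genes.

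Among 15 chemokines tested 2 rose and 2 fell, where 1.53% of all genes rose and 2.14% fell. Without PBS 2, 4 of 14 rose and 2 fell, against 5.66% and 6.82% of all genes. Ccl22, a ligand of CCR4 on regulatory T cells, rose with Ccl5, by 1.30, from 0.0328 to 0.205 FPKM up to 1.67 to 1.98 FPKM. Cxcl1, a neutrophil attractant, fell with Cxcl10, from 14.0, 16.7 and 13.02 FPKM to 5.84, 4.68 and 6.51 FPKM (-1.23 ± 0.13, adjusted p = 0.00165). The abundant Ccl3 and Ccl2, which attract monocytes, did not pass with all libraries: Ccl3 was at 336 to 554 against 393 to 439 FPKM and Ccl2 at 43.4 to 82.3 against 60.2 to 63.4 FPKM. Without PBS 2, Ccl2 rose (0.41, adjusted p = 0.0487).

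Of 9 tested receptors that sense chemoattractants 5 rose and none fell, with a median of 0.65, where 1.53% of all genes rose. Without PBS 2, 5 rose and 1 fell, against 5.66% and 6.82% of all genes. Fpr2, a formyl peptide receptor that detects bacterial peptides, was at 30.4, 44.7 and 33.6 FPKM after PBS and at 90.4, 83.0 and 93.2 FPKM after OMV-SIRP-G, a rise of 1.29 ± 0.14 (adjusted p = 0.00197), or 1.44 without PBS 2. Its relative Fpr1 rose by 1.48, and Cmklr1, the chemerin receptor, by 1.29. The complement receptors C5ar1 and C3ar1 rose by 0.75 and 0.65, and C3ar1 lost its call when OMV-SIRP-G 1 or 2 was left out, with an adjusted p of up to 0.094. On the neutrophil list Mmp9, a gelatinase, and Cxcr2, a chemokine receptor, rose by 1.33 and 1.05, and none of the 15 tested fell. Without PBS 2, 7 of them rose and 1 fell, against the same 5.66% and 6.82% of all genes.

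Immediate-early transcription factors split. Fos was at 206, 205 and 204 FPKM after PBS and at 598, 591 and 626 FPKM after OMV-SIRP-G, a rise of 1.55 ± 0.12 (adjusted p = 0.000249), and 1.55 also without PBS 2. Jun, its partner in AP-1, rose by 1.22, Egr1 by 1.24, the phosphatase gene Dusp1 by 1.13 and Fosb by 0.96. Egr3, of the same family as Egr1, was at 13.2, 6.09 and 12.8 FPKM after PBS and at 2.004, 1.96 and 1.29 FPKM after OMV-SIRP-G, and it fell by 2.03 ± 0.26 (adjusted p = 0.00402), or 2.35 without PBS 2. In all, 5 of 12 rose and 2 fell, the second being Atf3 (-0.59), against 1.53% and 2.14% of all genes. Without PBS 2, 7 rose and 2 fell, against 5.66% and 6.82% of all genes. Atf3 kept its call only when PBS 2 was the library left out, and Fosb lost it when OMV-SIRP-G 1 or 2 was left out (adjusted p up to 0.168 and 0.0663).

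Hspa1b and Hspa1a, near-identical genes of the inducible HSP70 chaperone, rose while the other 8 tested heat shock genes did not pass, with or without PBS 2. Hspa1b was at 15.7, 13.4 and 15.03 FPKM after PBS and at 49.0, 52.0 and 49.5 FPKM after OMV-SIRP-G, and Hspa1a at 13.4 to 16.9 against 44.0 to 48.9 FPKM. Their changes were 1.71 ± 0.10 and 1.55 ± 0.11 (adjusted p = 9.69e-05 and 0.000178), or 1.64 and 1.63 without PBS 2, and the division of reads between the pair is uncertain. Of 13 genes of iron handling and the NRF2 antioxidant response 6 rose and none fell, with a median of 0.43, where 1.53% of all genes rose and 2.14% fell. Without PBS 2, 8 rose and 1 fell, against 5.66% and 6.82% of all genes. The fall was that of the transferrin receptor gene Tfrc (-0.98). Slc7a11, the cystine importer, was at 3.97, 2.66 and 4.67 FPKM after PBS and at 9.82, 10.6 and 9.65 FPKM after OMV-SIRP-G, a rise of 1.23 ± 0.16 (adjusted p = 0.00395), or 1.05 without PBS 2. The others were the quinone reductase Nqo1 (0.97), the iron exporter Slc40a1 (0.71), Srxn1 (0.62), the phagosomal metal transporter Slc11a1 (0.46) and Gclm of glutathione synthesis (0.43). Each of these 5 lost its call when some single libraries other than PBS 2 were left out (adjusted p up to 0.0863, 0.0512, 0.071, 0.12 and 0.17), which left 1 or 2 calls on the list. Hmox1, heme oxygenase 1, was among the most abundant genes in both groups, at 2414 to 3096 FPKM after PBS and 2352 to 2525 FPKM after OMV-SIRP-G, and did not pass (adjusted p = 0.784, or 0.877 without PBS 2).

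**Figure D4:**
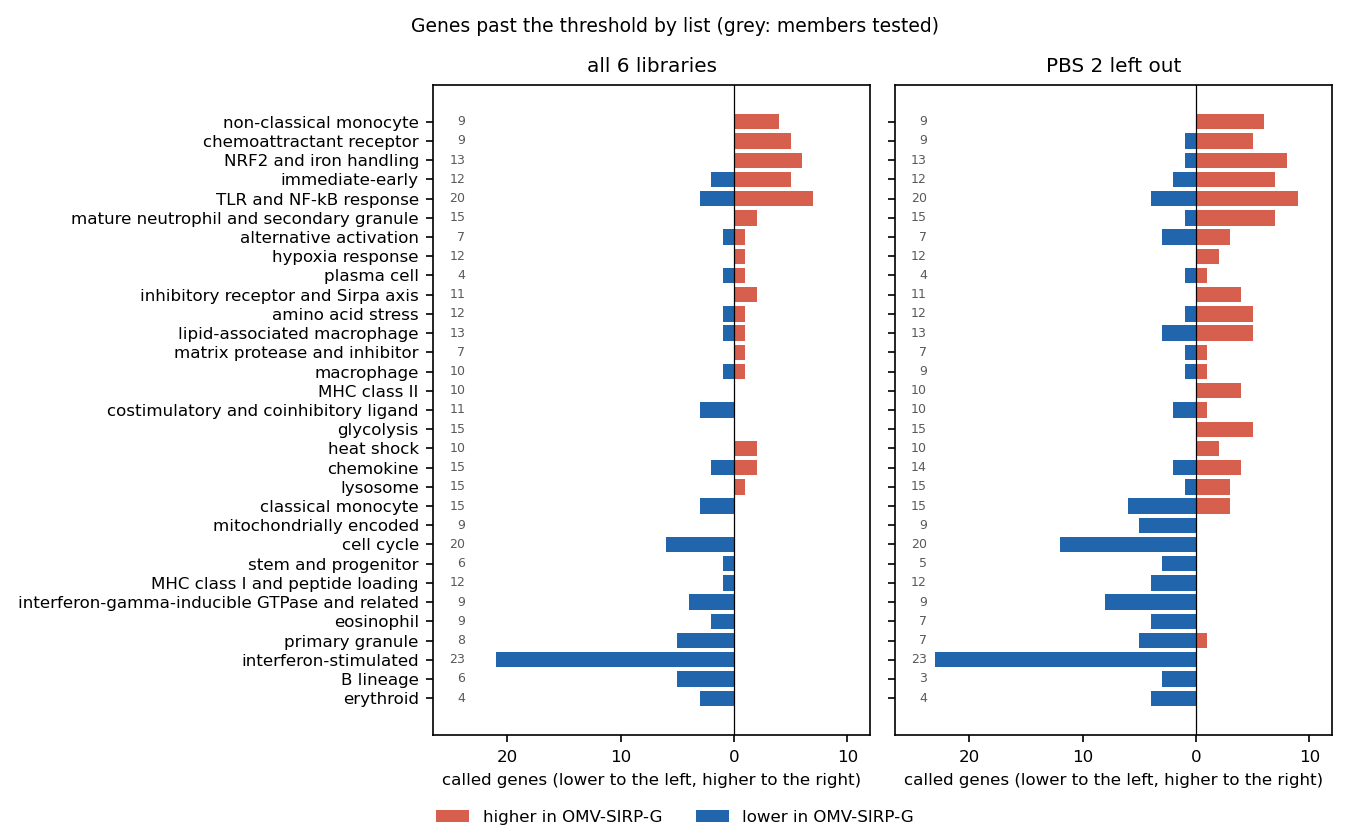
Number of genes that rose or fell after OMV-SIRP-G in each list with at least 3 calls over both fits, with all 6 libraries and with PBS 2 left out; grey numbers give the members tested. The interferon-stimulated list has 21 falls with all libraries and 23 without PBS 2, and no rise in either.

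Genes that are often read as marks of macrophage activation did not follow 1 axis. Arg1, arginase 1, was at 41.7, 55.6 and 42.0 FPKM after PBS and at 58.3, 49.5 and 56.8 FPKM after OMV-SIRP-G; the groups overlapped and the change of 0.25 ± 0.13 did not pass (adjusted p = 0.426, or 0.38 with adjusted p = 0.0162 without PBS 2). Mrc1, the mannose receptor CD206, was low in both groups, at 0.491 to 1.19 FPKM after PBS and 0.387 to 0.640 FPKM after OMV-SIRP-G (adjusted p = 0.439, or 0.0422 without PBS 2). Mgl2, a C-type lectin, fell by 0.62, from 10.3, 13.4 and 10.4 FPKM to 6.96, 6.88 and 7.07 FPKM, and lost the call without any 1 of the OMV-SIRP-G libraries (adjusted p up to 0.0949). Cd86, a costimulatory ligand, was at 23.1, 25.9 and 25.6 FPKM after PBS and at 15.5, 15.3 and 15.4 FPKM after OMV-SIRP-G, a fall of 0.65 ± 0.09 (adjusted p = 0.00492), or 0.62 without PBS 2. The scavenger receptor gene Stab1 rose by 1.37, Cd36, which takes up fatty acids and oxidised lipoproteins, fell by 1.03, and Lpl, lipoprotein lipase, rose by 0.88. Lpl had an adjusted p of 0.05 without OMV-SIRP-G 3.

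Sirpa, the inhibitory receptor of myeloid cells that binds CD47, was at 173, 166 and 176 FPKM after PBS and at 222, 224 and 199 FPKM after OMV-SIRP-G. The groups did not overlap, but the change of 0.32 ± 0.11 did not pass (adjusted p = 0.185), and it passed without PBS 2 (0.30, adjusted p = 0.0254). Its ligand Cd47 was at 92.0, 87.9 and 95.0 FPKM against 88.2, 91.0 and 83.4 FPKM (-0.07 ± 0.09, adjusted p = 0.739). Of 11 genes of this axis and other myeloid inhibitory receptors 2 rose, Pilra and Siglece, against 1.53% of all genes. Without PBS 2, 4 rose, against 5.66% of all genes. Siglece, a sialic acid receptor that inhibits myeloid cells, was at 8.02, 9.90 and 7.15 FPKM after PBS and at 24.8, 24.7 and 21.7 FPKM after OMV-SIRP-G, a rise of 1.41 ± 0.14 (adjusted p = 0.000822), or 1.52 without PBS 2.

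Several lists held no call with all libraries. None of 10 major histocompatibility complex (MHC) class II genes, 13 Toll-like receptor genes and adaptors, 15 glycolysis genes, 15 respiratory chain genes or 16 cholesterol synthesis genes passed. Without PBS 2, 4 class II genes, 5 glycolysis genes and the Toll-like receptor adaptor gene Ticam1 (0.40, adjusted p = 0.00998) rose. Over all genes 5.66% rose in that fit, and the respiratory chain and cholesterol lists still held no call. H2-Ab1, a class II beta chain, was at 12.7, 31.5 and 13.4 FPKM after PBS and at 35.7, 29.3 and 38.0 FPKM after OMV-SIRP-G, so that PBS 2 alone lay inside the treated range. Its change was 0.92 (adjusted p = 0.189) with all libraries and 1.32 (adjusted p = 0.000196) without PBS 2. The 15 ribosomal protein genes, which are short, had a median change of -0.52 with all libraries and -0.06 without PBS 2, with no call in either. Of 9 mitochondrially encoded genes none passed with all libraries and 5 fell without PBS 2, with medians of -0.20 and -0.28. Over all genes 6.82% fell without PBS 2.

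The direct test of OMV-SIRP-G against OMV-SIRP passed for 293 of 12028 genes (2.44%), 191 higher (1.59%) and 102 lower after OMV-SIRP-G. Both comparisons use the same OMV-SIRP-G libraries, so values are set side by side. Nos2 stood at 7.84, 6.10 and 7.98 FPKM after OMV-SIRP, under the PBS range, and at 58.0 to 75.4 FPKM after OMV-SIRP-G, above it, a difference of 3.01 (adjusted p = 0.000883). Il1b was at 27.2, 37.1 and 30.5 FPKM after OMV-SIRP, and its difference was 2.22 (adjusted p = 0.00208). Arg1, at 19.7, 21.4 and 20.7 FPKM after OMV-SIRP, was higher after OMV-SIRP-G by 1.37 (adjusted p = 0.00233), as was Hspa1b by 2.07 (adjusted p = 0.00016) and Cd38 by 1.27 (adjusted p = 0.00147).

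Other genes differed in the opposite direction. Mgl2 was at 32.7, 31.5 and 32.3 FPKM after OMV-SIRP and Mrc1 at 5.64, 5.30 and 4.63 FPKM, both above the PBS range, whereas both were below the PBS mean after OMV-SIRP-G. The differences were -2.06 (adjusted p = 0.00016) and -2.01 (adjusted p = 0.00119). Mrc1 was not called against PBS. The genes lowest against OMV-SIRP among those called against PBS, by the naming rule, were Mgl2, Klk1b11, Dusp2, Asgr2 and Srm. The last 4 had differences of -1.94, -1.27, -1.26 and -1.22. Against PBS these 4 fell by 1.66, 1.48, 0.99 and 0.86, and the calls of Klk1b11, Asgr2 and Srm were lost when some single libraries were left out (adjusted p up to 0.0888, 0.158 and 0.18). Tnf, at 46.0 to 53.7 FPKM after OMV-SIRP, was low in both vesicle groups, with a difference of -0.50 between them (adjusted p = 0.169, or 0.00355 without PBS 2). Leaving out PBS 2, which is in neither of these groups but enters the shared spread, raised the count of calls to 2516 (21.2%), and these included all 293.

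**Figure D5:**
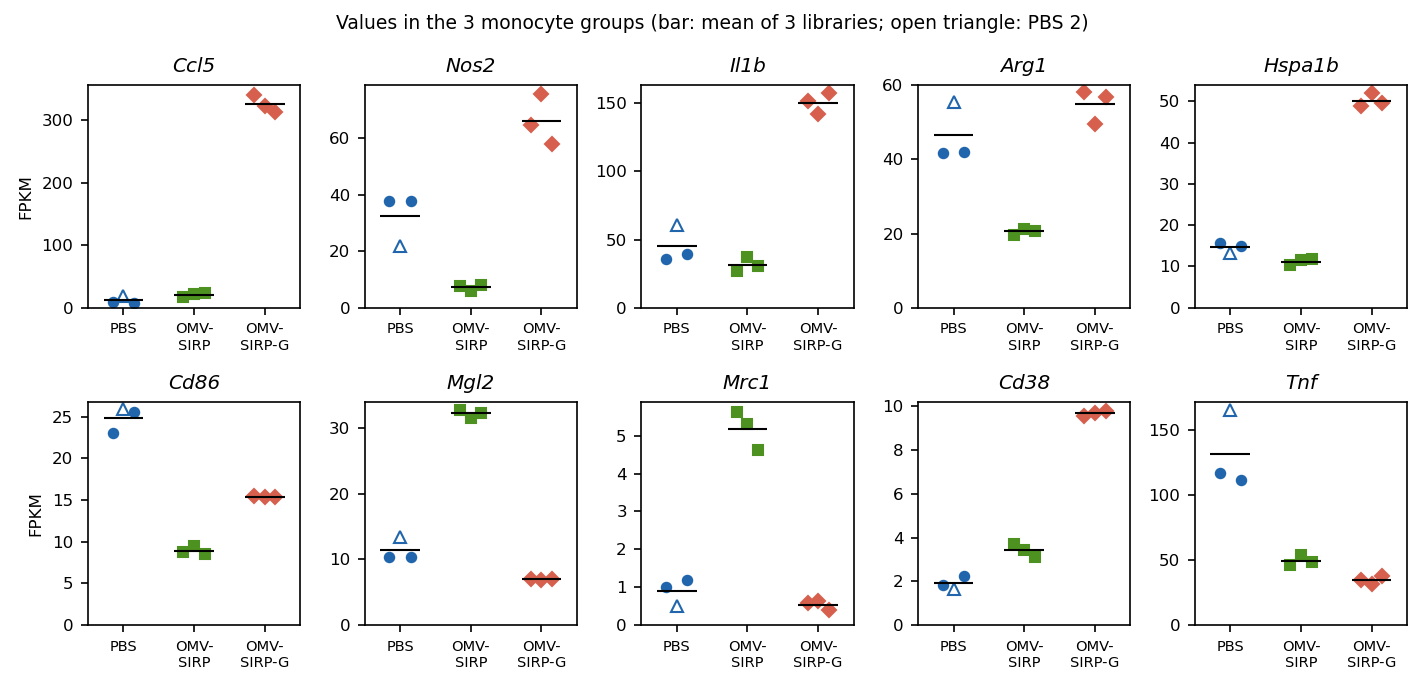
FPKM of 10 genes in the 3 monocyte groups, PBS, OMV-SIRP and OMV-SIRP-G; points are libraries and bars are means of 3. Nos2 is at 6.10 to 7.98 FPKM after OMV-SIRP and 58.0 to 75.4 FPKM after OMV-SIRP-G, while Mgl2 is at 31.5 to 32.7 and 6.88 to 7.07 FPKM.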

How the data were processed

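The authors deposited FPKM for 56026 gene models in 18 bone marrow libraries, 453 of them without an Ensembl identifier. Per the submitters' processing notes, featureCounts 1.5.0-p3, StringTie and HISAT2 2.0.5 were used with GRCm38. Settings, and whether strand was used, are not given in the sources at hand. Converted through gene length, 100% of the FPKM were whole numbers of reads within 0.05 reads, which recovered the depth and showed that the deposited values already carry a median-of-ratios scaling between libraries. Groups came from the labels. Genes that reached 1 FPKM in 3 or more libraries of the fit were tested on log2(FPKM + 1) with limma 3.58.1 (lmFit, eBayes with trend and robust; statmod 1.5.0, R 4.3.3), with Benjamini-Hochberg adjustment at 0.05. All 9 monocyte libraries entered the fit, and all 18 that of the difference between monocytes and GMP. Running limma voom on the recovered reads, a test of counts, called 422 genes. The code was tested on simulated data.

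Named genes were the 15 largest changes each way among protein-coding genes called with and without PBS 2, with a mean FPKM of at least 5 in a group and groups that did not overlap; up to 4 members of each of 42 gene lists with the lowest adjusted p, plus members that show a list; Sirpa, Cd47, Arg1, Nos2, Mrc1, Cd86 and Ccl5; the 8 whose change moved most without PBS 2; and the 5 largest changes each way in the other comparisons among genes called against PBS. The comparison, the gene lists and the rule were chosen with earlier results of these data known. Lists were described by counts and medians, with no set test. Alternatives covered the pseudocount, the filter, scaling, library weights, the model and each library left out. Promoters came from RefSeq (GRCm38.p6), matched by symbol. Of the genes that the rule names, some are not reported here.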

Additional observations from a re-analysis of the deposited data

Results flagged for a closer look

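The response of monocytes to OMV-SIRP-G differed from that of GMP, by a direct test of the difference between the 2 changes from PBS, in 904 of 13337 genes (6.78%), 321 with the monocyte change above that of GMP and 583 below. The genes named here are the 5 at each end of that difference among those called in monocytes.

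Ccl5 had a monocyte change larger by 3.25 (limma adjusted p = 1.27e-05). In GMP it was at 4.13 ± 0.766 FPKM after PBS and 13.6 ± 0.338 FPKM after OMV-SIRP-G (SD, n = 3), so it was higher in GMP too. Cd38 differed by 1.85, with 1.08 and 1.13 FPKM in GMP, and Adgre4 by 1.81, with 4.40 and 3.49 FPKM. Slc7a11 differed by 1.78 and Igf2r, the receptor for mannose 6-phosphate, by 1.72. Igf2r was at 1.75, 0.705 and 2.30 FPKM in monocytes after PBS and at 5.12, 5.502 and 4.54 FPKM after OMV-SIRP-G, against means of 6.35 and 4.41 FPKM in GMP.

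Mpo differed by -3.86 and Elane by -3.37. Both were far higher in GMP, where Mpo was at 1514 ± 91.4 FPKM after PBS and 1519 ± 122 FPKM after OMV-SIRP-G (SD, n = 3), and Elane at means of 2569.6 and 2802 FPKM. Egr3 differed by -3.29, with means of 1.19 FPKM after PBS and 4.25 FPKM after OMV-SIRP-G in GMP, opposite to monocytes. Slfn1 differed by -2.93 and Ifit3 by -2.64. Slfn1, of the Schlafen family, whose members are similar enough that reads may have been divided between them, was at 65.0, 101 and 67.7 FPKM in monocytes after PBS and at 24.9, 25.9 and 25.3 FPKM after OMV-SIRP-G, against means of 14.7 and 39.7 FPKM in GMP. The mean of Ifit3 in GMP was 0.912 FPKM after PBS and 2.60 FPKM after OMV-SIRP-G, while in monocytes it went from 6.38 to 1.18 FPKM.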

How the results depend on the processing

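The count of 442 genes for OMV-SIRP-G against PBS stayed within 1.5 times (306 to 532) with another pseudocount, with no filter or a stricter one, under scaling to total reads or quantile normalization, with voom on the recovered reads and with plain eBayes. It was 177 with the compared groups alone, 190 with a minimum of 2-fold, 242 with the replicate number as a block and 3983 with library weights, which gave PBS 2 a weight of 0.0344 (weights were estimated gene by gene). Leaving out 1 library gave 202 to 1479. Against OMV-SIRP the 293 genes became 81 with the 2-fold minimum, 75 with the replicate block, 154 without a filter, 455 with quantile normalization, 2118 with the 2 groups alone and 3862 with library weights. Leaving out 1 library gave 59 to 2516, and 59 to 76 apart from PBS 2. The split of 191 higher and 102 lower became 251 and 204 with quantile normalization and 142 and 188 with scaling to total reads. For monocytes against GMP the 904 genes became 252 with the 2-fold minimum, 473 with the compared groups alone, 4263 with library weights and 621 to 2027 with 1 library left out. The cause of these shifts was not tested. Same-numbered PBS and OMV-SIRP-G libraries deviated from their groups with correlations of -0.0199, -0.37 and -0.319. PBS 1 and PBS 3 had near-equal correlations with each OMV-SIRP-G library, such as 0.324 and 0.326 with OMV-SIRP-G 2. The PBS means include PBS 2, which stood apart, so these values cannot decide whether the replicate numbers pair the libraries. Over 3066 values of single named genes under these settings, 2694 kept direction and side of the threshold, 229 lost the threshold and 119 gained it. The other 24 changed sign, all of them values that passed the threshold in neither fit, such as Fcer1g, from -0.20 to 0.14 without PBS 2.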
